A study of Rattus norvegicus with 6 samples.

Results

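The liver makes most of the circulating insulin-like growth factor 1 and also reads out insulin, and 10 mRNAs of these linked systems were followed in rat liver. They were Igf1, its binding protein genes Igfbp1, Igfbp2, Igfbp3 and Igfbp4, the acid-labile subunit gene Igfals, the growth hormone receptor gene Ghr, the insulin receptor gene Insr, and the insulin receptor substrate genes Irs1 and Irs2. They were chosen by gene symbol from the pathway, and each symbol had 1 locus among the 33022 loci of the deposited table. The rats were male obesity-prone Sprague Dawley rats, whose age the labels do not give, fed a control diet (CD) or a Western diet (WD) for 2 weeks. The WD was rich in sucrose and in saturated fat from milk and held cholesterol. All rats were fasted overnight and refed their own diet in the morning before the liver was taken. For each diet, total RNA, the light fraction of a sucrose gradient (mRNAs with 3 or fewer ribosomes) and the heavy fraction (4 or more ribosomes) were sequenced. RNA of 3 rats was pooled before each library, so each of the 6 combinations was measured once. No value below therefore has a replicate, no test between diets was possible, and a difference between the diets cannot be told apart from a difference between these pools.

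Growth hormone from the pituitary binds its receptor on hepatocytes and, through the kinase Jak2 and the transcription factor Stat5b, raises transcription of Igf1 and Igfals. In blood, most insulin-like growth factor 1 travels in a ternary complex with Igfbp3 and the acid-labile subunit, whereas Igfbp1 is a short-lived regulator whose hepatic transcription is strongly repressed by insulin and rises in fasting. Insulin acts through Insr, and the substrates Irs1 and Irs2 carry the signal to phosphatidylinositol 3-kinase and Akt, which keeps the transcription factor Foxo1 out of the nucleus.

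The best known regulatory sequence of this group is the insulin response element of the Igfbp1 promoter, which forkhead factors such as Foxo1 bind. A promoter sequence was matched for 9 of the 10 genes, and none was matched for Irs2. The 250 bases before the start of Igfbp1 (RefSeq, assembly GRCr8, chr14:86261027-86261276, plus strand) are shown because they hold this element, which is in capitals and begins 121 bases before the start.
Igfbp1: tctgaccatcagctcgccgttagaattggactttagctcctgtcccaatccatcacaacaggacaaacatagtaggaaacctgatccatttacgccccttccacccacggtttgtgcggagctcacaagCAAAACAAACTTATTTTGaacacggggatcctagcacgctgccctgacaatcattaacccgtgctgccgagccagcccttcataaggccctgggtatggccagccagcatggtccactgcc
The element was searched on the plus strand of each gene as CAAAACA and TATTTTG, 4 bases apart. These letters were taken from the known Igfbp1 element, and among 33469 rat promoters of the same length, 1 held them. Its first 7 letters, CAAAACA, were searched on both strands and were found in 5.46% of these promoters, and among the genes described here in Igfbp1 and in Igf1. A common forkhead motif, TGTTTAC, was found in 3.21% of promoters on either strand and here in Insr. Both matches are shown with the 12 bases on either side and the motif in capitals, for Igf1 at chr7:24172453-24172483 (plus strand) and for Insr at chr12:6128885-6128915 (minus strand).
Igf1: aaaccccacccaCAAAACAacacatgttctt
Insr: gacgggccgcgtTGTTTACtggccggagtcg
The Igf1 match began 67 bases and the Insr match 100 bases before the start. The letters TTCNNNGAA, the core of sites that Stat5 proteins bind, were in 7.67% of promoters and in none of these 9 windows. A TATAAA box was in 12.9% of promoters and here in that of Igfbp4. These are matches of letters within a short window, with no measurement of binding.

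In the deposited coordinates (Rnor_6.0), Igf1 lies on chromosome 7 (28412197 to 28486764), with 2 transcription start sites, and Ghr on chromosome 2 (53150369 to 53413682), with 4. Igfbp1 (87448691 to 87453785) and Igfbp3 (87457646 to 87465374) are neighbours on chromosome 14, and Igfals (14240218 to 14243597) and Igfbp4 (86950556 to 86962578) lie on chromosome 10. Insr is on chromosome 12 (1680956 to 1816414), and Igfbp2 (80118028 to 80144789) and Irs1 (88033667 to 88086488) are on chromosome 9. Irs2 is on chromosome 16 (83824429 to 83848684).

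Values are FPKM, that is sequenced fragments scaled to transcript length (per kilobase) and to the depth of the library. They are levels per length and so can be compared between genes. By the mean over the 6 libraries, Igfbp4 had the highest level of the 10 mRNAs (595 FPKM), ahead of Igf1 (452 FPKM) and Ghr (428 FPKM), and the ranges of neighbours in this order overlapped. Igfals (115 FPKM) and Insr (30.4 FPKM) followed, and the ranges of Ghr, Igfals and Insr did not overlap in this order. Irs1 (12.9 FPKM) and Igfbp3 (11.9 FPKM) were at about the same level, and the range of Irs1 also touched that of Insr. Igfbp1 (3.94 FPKM), Igfbp2 (0.97 FPKM) and Irs2 (0.876 FPKM) were the lowest, with overlapping ranges between neighbours. The hepatocyte markers, among them albumin and transthyretin, summed to between 46579 and 140551 FPKM per library, and no list of another cell type summed to over 415.02 FPKM, so the tissue label held.

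**Figure D1:**
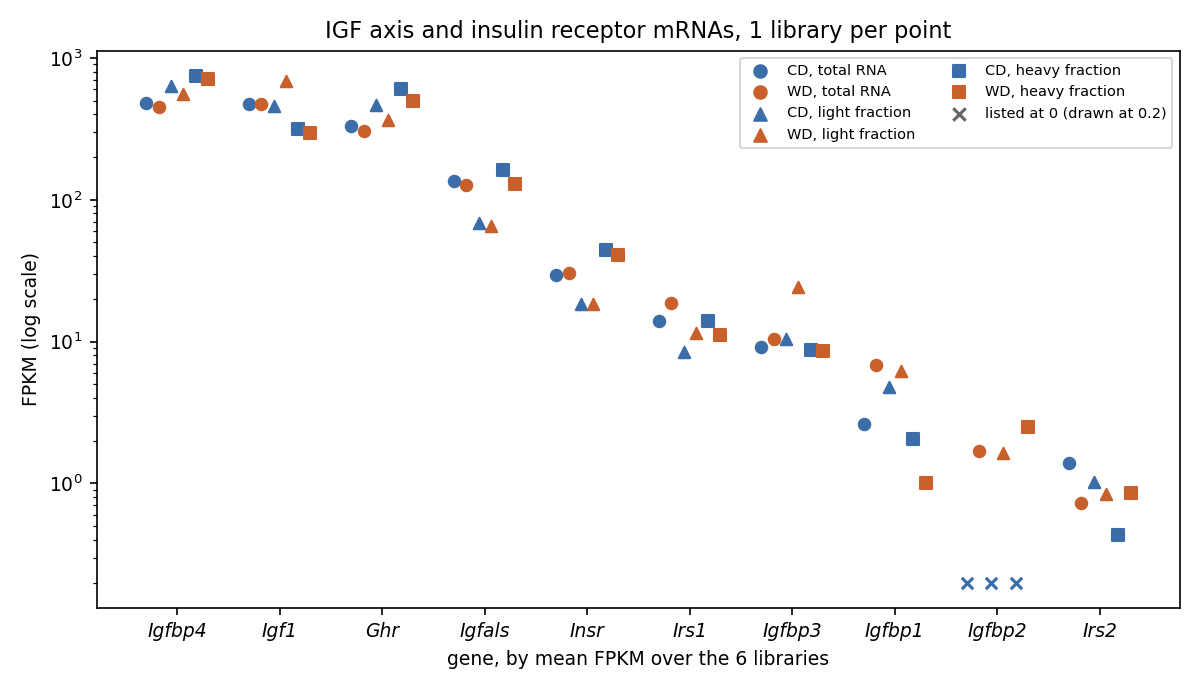
Level of each mRNA in FPKM (log axis) in each of the 6 libraries, 1 point per library, blue for CD and orange for WD, with circles for total RNA, triangles for the light and squares for the heavy fraction. The 10 genes spanned from below 1 FPKM (Irs2) to 745 FPKM (Igfbp4, heavy fraction of CD), and the crosses mark Igfbp2, listed at 0 in the 3 CD libraries.

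For 7 of the 10 genes the number of sequenced fragments behind each value could be inferred from the FPKM values themselves, which gave a 95% interval for each ratio (exact binomial, Clopper-Pearson). For Igf1, Ghr and Insr it could not, and the interval was taken from the wider bounds that Cufflinks deposited with each value. Both kinds compare libraries, not diets, and cover no spread between rats. The fragment intervals cover counting error only, since amplified reads carry no molecular identifiers and may repeat a molecule. The WD light library was 2.34 times as deep as the CD heavy library and the others 1.02 to 1.57 times as deep. Its FPKM values of loci with a symbol also summed to 867734, against 617369 to 700724 in the other libraries. A ratio of at least 1.5 or at most 0.75, the study's thresholds for ribosome density, was used as the mark of a difference throughout.

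In total RNA, the mRNAs that the liver makes most of were at nearly the same level in both diets. Igf1 was at 470 FPKM in CD and 477 FPKM in WD, a ratio of 1.01 (interval 0.241 to 4.27). Ghr was at 332 FPKM in CD and 307 FPKM in WD, a ratio of 0.925 (interval 0.188 to 4.54). Igfals was at 136 FPKM in CD and 128 FPKM in WD, from 320 and 288 fragments, a ratio of 0.941 (interval 0.8 to 1.11). None of these 3 ratios was past a threshold, although the intervals of Igf1 and Ghr held both thresholds. For Igfals and Igfbp4 the interval from fragment numbers, which covers counting error only, left out both thresholds. The bounds that Cufflinks gave Igfbp4 in CD total RNA (0 to 1017 FPKM) were about as wide as those of Igf1 (0 to 959 FPKM). The narrower interval of Igfbp4 thus reflects the kind of interval. Igfbp4, the most abundant of the binding protein mRNAs measured here, was at 480 FPKM in CD and 449 FPKM in WD, a ratio of 0.935 (interval 0.856 to 1.02).

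Igfbp1 had the highest ratio in total RNA among the genes with fragments in both diets. It was at 2.64 FPKM in CD and 6.89 FPKM in WD, a ratio of 2.61, but these values rest on 4 and 10 fragments and the interval ran from 0.754 to 11.4. The study chose Igfbp1 for a list of mRNAs higher in WD from these same libraries. Its text describes the list by ribosome density (heavy over light), while the title of the list names no measure. If the choice used total RNA, the direction here is not independent of it. The WD to CD ratio of density of Igfbp1 was 0.379 here (interval 0.00601 to 9.58). Its neighbour Igfbp3, whose locus begins 3861 bases after that of Igfbp1 on chromosome 14, was at 9.12 FPKM in CD and 10.4 FPKM in WD, a ratio of 1.14 (interval 0.619 to 2.1). Igfbp2, a binding protein that is high in fetal liver, was listed at 0 in CD total RNA and at 1.69 FPKM in WD, from 2 fragments. Both numbers lie below 3 fragments, which is the most that a count of 0 allows, so no fold is given.

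Insr was at 29.6 FPKM in CD and 30.6 FPKM in WD, a ratio of 1.03 (interval 0.343 to 3.12). Irs1 was at 13.9 FPKM in CD and 18.6 FPKM in WD, from 82 and 105 fragments, a ratio of 1.34 (interval 0.993 to 1.81). Irs2, whose hepatic transcription is raised by forkhead factors when insulin is low, was at 1.39 FPKM in CD and 0.725 FPKM in WD, from 10 and 5 fragments, a ratio of 0.523 (interval 0.14 to 1.68). The ratio of Irs1 to Irs2 was 10 in CD and 25.7 in WD total RNA. For both substrates the interval included 1, while with equal FPKM sums in each library Irs1 came to 1.43 (interval 1.06 to 1.93).

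In all, 2 of the 10 genes (Igfbp1 and Igfbp2) had a ratio of at least 1.5 in total RNA, against 18% of the 10201 loci compared (those that carry a symbol and average 1 FPKM or more), and 1 (Irs2) had a ratio of at most 0.75, against 23.1%. Igfbp2 is counted as the loci of the background at 0 in 1 diet are. The 3 genes past a threshold are the 3 of the lowest levels. None of the 3 had an interval that left out 1, as 2.37% of the 7351 loci with fragment numbers did upward and 3.17% downward. The median log2 change, from FPKM + 0.1, was 0.03 over the 10 genes, 0.02 without Igfbp2 and 0.02 over all loci. Changes in the share of a cell type and in RNA per cell cannot be told apart in these pooled tissue samples.

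**Figure D2:**
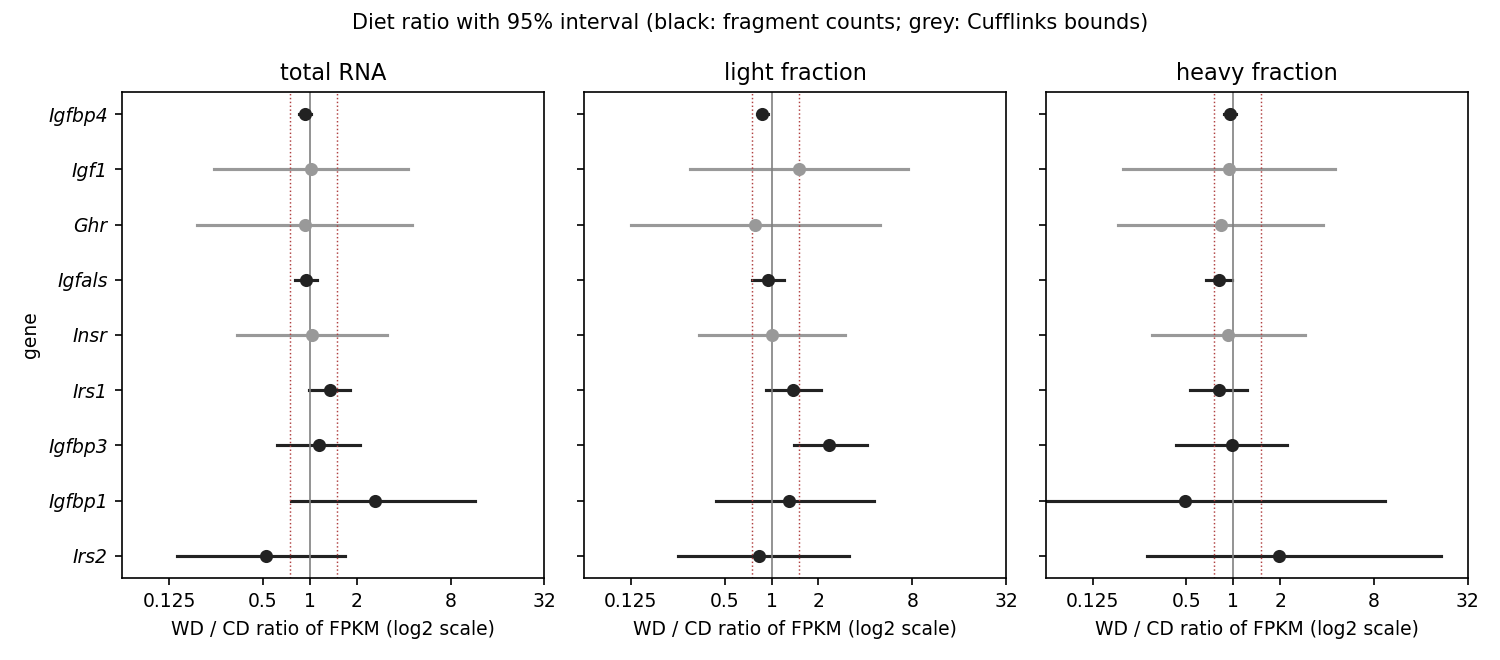
WD over CD ratio of FPKM (log2 axis) with its 95% interval for 9 genes in total RNA and in the light and heavy fractions, black where the interval comes from fragment numbers and grey where it comes from the Cufflinks bounds. Dotted lines mark ratios of 0.75 and 1.5, Igfbp2 is left out because it was listed at 0 in CD, and Igfbp3 in the light fraction is the point past a threshold whose interval leaves out 1. The Igfbp1 interval in the heavy fraction runs past the left edge of the plot, to 0.00827.

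In the light fraction, Igfbp3 stood at 10.4 FPKM in CD and 24.3 FPKM in WD, from 18 and 91 fragments. The ratio was 2.32, and its interval of 1.39 to 4.1 left out 1, as for 7.69% of the 7351 loci with fragment numbers in this direction. Igfbp3 in the WD light fraction was the highest of its 6 values, and the other 5 lay between 8.51 and 10.4 FPKM. In the liver, Igfbp3 is made mainly by sinusoidal endothelial and Kupffer cells rather than by hepatocytes. The summed FPKM of 9 sinusoidal endothelial markers was 143 in the CD and 122 in the WD light fraction. Fcgr2b alone held 70.7 FPKM of this sum in CD and 43.3 FPKM in WD (interval of its ratio 0.191 to 1.97). This is a larger fall than that of the sum, so the lower sum rests on 1 gene. Of the 9, 2 had a ratio of at least 1.5 (against 26.2% of loci) and 2 of at most 0.75 (against 27.1%). The summed FPKM of 10 Kupffer cell and macrophage markers was 100.5 and 118, with 3 and 2 past the thresholds. That of 10 stellate cell markers was 156 and 149, with 5 and 3, against the same shares of loci. Markers of blood cells, led by the globin genes, summed to 54.6 FPKM in the CD and 415 FPKM in the WD light fraction, whereas they were at 37.2 and 19 FPKM in total RNA. Of the 4 blood genes compared in the light fraction, Hba1 and Hbb had a ratio of at least 1.5 (against 26.2% of loci). Alas2 (0.364) and Ptprc (0.736) had one of at most 0.75 (against 27.1%). The part of these differences and of the depth of the WD light library in the Igfbp3 ratio was not tested.

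The other binding proteins differed less between the light fractions. Igfbp4 was at 634 FPKM in CD and 553 FPKM in WD, a ratio of 0.871 whose interval (0.806 to 0.943) left out 1 but which was not past a threshold. Igfbp1 was at 4.82 and 6.21 FPKM, from 5 and 14 fragments, a ratio of 1.29 (interval 0.438 to 4.57). Igfbp2 was listed at 0 in CD and at 1.64 FPKM in WD, from 3 fragments. Igfals was at 68.9 FPKM in CD and 65 FPKM in WD.

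Igf1 was at 461 FPKM in the CD and 690 FPKM in the WD light fraction, its highest value, and this ratio of 1.497 lay just below the threshold of 1.5, with an interval of 0.299 to 7.48. Ghr was at 463 and 364 FPKM, a ratio of 0.787. Insr was at 18.4 and 18.6 FPKM, Irs1 at 8.44 and 11.5 FPKM, and Irs2 at 1.01 and 0.84 FPKM. Thus 2 of the 10 genes (Igfbp2 and Igfbp3) had a ratio of at least 1.5, against 26.2% of loci, and none had a ratio of at most 0.75, against 27.1%. The median log2 change was 0.18 over the 10 genes, 0.01 without Igfbp2 and 0.02 over all loci. With FPKM sums made equal across libraries, the median over all loci in this comparison moved to -0.29, the share of higher ones among the loci past a threshold went from 49.1% to 28.4%, and Igfbp4 (0.682), Igfals (0.74), Ghr (0.616) and Irs2 (0.648) came to ratios below 0.75. The intervals of Igfbp4 (0.631 to 0.738) and Igfals (0.587 to 0.937) then left out 1. Igfbp3 was then at 1.82 (interval 1.09 to 3.21).

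In the heavy fraction, where mRNAs carry many ribosomes, Igfals was at 161 FPKM in CD and 130 FPKM in WD, from 242 and 200 fragments. Its ratio of 0.807 was not past a threshold, with an interval of 0.666 to 0.977. Igfbp4 was at 745 and 709 FPKM, Ghr at 602 and 500.4 FPKM, and Igf1 at 316 and 296 FPKM, with ratios of 0.952, 0.831 and 0.938. Insr was at 44.1 and 41 FPKM, Irs1 at 13.9 and 11.2 FPKM, and Igfbp3 at 8.72 and 8.51 FPKM. All 8 of the genes other than Igfbp2 and Irs2 had a lower value in WD, with intervals that included 1 for each but Igfals. Among the changes of all loci, those of the 8 lay between percentiles 12.5 (Igfbp1) and 43.4 (Igfbp3). At least 43.4% of all loci were thus lower in WD too, and the median log2 change of all loci was -0.02. The count of 8 is therefore not read as a trait of these genes.

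Igfbp1 stood at 2.07 FPKM in CD and at 1.01 FPKM in WD, which are 2 fragments and 1, too few for a fold. Igfbp2 was listed at 0 in CD and at 2.49 FPKM in WD, from 2 fragments. Irs2 was at 0.436 and 0.851 FPKM, from 2 and 4 fragments, a ratio of 1.95 with an interval of 0.28 to 21.6. By the thresholds alone, 2 of the 10 genes had a ratio of at least 1.5 (Igfbp2 and Irs2), against 21.8% of loci, and 1 of at most 0.75 (Igfbp1), against 26%. The median log2 change was -0.10 over the 10 genes, -0.11 without Igfbp2 and -0.02 over all loci.

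The genes differed among themselves in how their mRNA was divided between the fractions, and several kept the same side in both diets. Igfals was at 2.34 times its light fraction level in the heavy fraction of CD (interval 1.86 to 2.96) and at 2 times in WD (interval 1.65 to 2.43). Insr had a heavy to light ratio of 2.39 in CD (interval 0.781 to 7.32) and 2.21 in WD (interval 0.738 to 6.62). Igfbp4 had ratios of 1.17 and 1.28, whose intervals left out 1, and Ghr had 1.3 and 1.37. With equal FPKM sums, the WD ratios were 1.59 (interval 1.47 to 1.72) for Igfbp4 and 1.7 for Ghr, past the upper threshold. Igf1 was on the other side, with 0.686 in CD and 0.43 in WD, although its interval included 1 in both (0.152 to 3.09 and 0.081 to 2.27). The ratio of Igf1 to Igfals, the mRNAs of a ligand and of a subunit of its carrier complex, was 6.7 in the light and 1.961 in the heavy fraction of CD, against 10.6 and 2.28 in WD. Igfbp4 held between 94.5% and 98.6% of the summed FPKM of the 4 binding protein genes in every library.

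The ratios of the remaining genes follow, and those of Igfbp3 and Igfbp1 also lay below 1 in both diets. Igfbp3 had a heavy to light ratio of 0.835 in CD (interval 0.385 to 1.78) and of 0.351 in WD (interval 0.184 to 0.619). Irs1 had 1.64 in CD (interval 1.05 to 2.61) and 0.971 in WD (interval 0.663 to 1.4). Igfbp1 had 0.43 in CD (interval 0.0409 to 2.62) and 0.163 in WD (interval 0.00385 to 1.07), and Irs2 had 0.43 and 1.01 on 2 to 9 fragments. In CD, 3 of the 10 genes had a ratio of at least 1.5 (Igfals, Insr and Irs1), against 33.2% of loci, and 3 of at most 0.75 (Igf1, Igfbp1 and Irs2), against 36.7%. In WD, the counts were 3 (Igfals, Insr and Igfbp2, the last on 2 and 3 fragments), against 32.2%, and 3 (Igf1, Igfbp1 and Igfbp3), against 38.5%. Among these, the interval left out 1 for Igfals in both diets, for Irs1 in CD and for Igfbp3 in WD. Loci with fragment numbers that did as much upward made up 14.4% in CD and 18% in WD, and 17.1% downward in WD. The median log2 ratio over the 10 genes was 0.12 in CD and 0.19 in WD (0.23 and 0.02 without Igfbp2), against 0.01 and 0 over all loci.

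**Figure D3:**
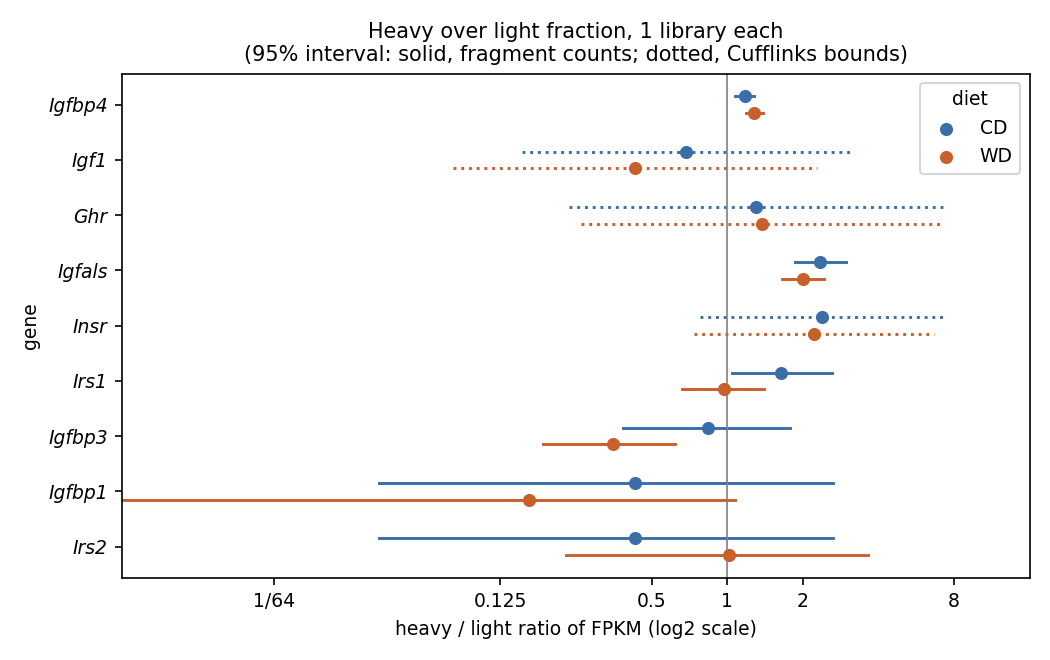
Heavy over light ratio of FPKM (log2 axis) with its 95% interval for 9 genes in CD (blue) and WD (orange), 1 library each, with solid intervals from fragment numbers and dotted ones from the Cufflinks bounds. Igfals lay at 2.34 and 2 and Insr at 2.39 and 2.21, Igf1 lay below 1 in both diets, and Igfbp3 moved from 0.835 in CD to 0.351 in WD. The Igfbp1 interval in WD runs to the left edge of the plot.

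Ribosome density, the heavy to light ratio, was compared between the diets next. Of the 10 genes, 4 had a WD to CD ratio of density of at most 0.75, against 33.6% of loci, namely Igfbp1 (0.379), Igfbp3 (0.42), Irs1 (0.591) and Igf1 (0.627). Irs2 alone had a ratio of at least 1.5 (2.36), against 26.6% of loci. The interval was 0.156 to 1.14 for Igfbp3, 0.324 to 1.07 for Irs1, 0.066 to 5.92 for Igf1, 0.00601 to 9.58 for Igfbp1 and 0.225 to 34.8 for Irs2, so that each included 1. Igfbp4 (1.09, interval 0.972 to 1.23), Igfals (0.854, interval 0.629 to 1.16), Ghr (1.06) and Insr (0.924) were not past a threshold. Igfbp2 could not be given a density in CD, where both fractions were listed at 0. The median log2 change was -0.17 over the 10 genes, -0.23 without Igfbp2 and -0.02 over all loci. With equal FPKM sums, the median over all loci moved to 0.28, the share of higher ones among loci past a threshold went from 44.2% to 59.5%, and Igf1 came to 0.787, while Igfbp4 came to 1.37 (interval 1.22 to 1.54).

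These densities rest on the light libraries, of which the WD library stands apart in depth, FPKM sum and globin mRNAs. Taken as heavy over total RNA, without either light library, the ratios were 0.956 in CD and 0.822 in WD for Igfbp3, and 0.672 and 0.621 for Igf1. Irs1 was at 0.996 in CD and 0.601 in WD on this measure, from 82 and 52 fragments in CD and 105 and 43 in WD. Igfbp1 was at 0.786 and 0.147 and Irs2 at 0.314 and 1.17, on 1 to 10 fragments a value. By the WD to CD ratio of heavy over total RNA, Igfbp1 and Irs1 were at or below 0.75, against 29.2% of loci, and Irs2 was at or above 1.5, against 24.9%.

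For 4 of the genes, the loci with the most similar pattern over the 6 libraries were named, by the root mean square difference of log2 values centred on each gene's mean, among the 3806 loci that average 10 FPKM or more and are above 0 in every library. The 6 libraries share the difference in depth between them, so a likeness describes these libraries. Closest to Igf1 were Nfe2l2 (difference 0.0783), Stk11 (0.111) and Cyp2c6v1 (0.135). Closest to Igfals were Col18a1 (0.075), AABR07073400.1 (0.0805) and Gne (0.0827), and closest to Igfbp3 were Ndufv2 (0.115), Rwdd4 (0.15) and Gsk3b (0.166). Igfbp1, on few fragments, had no locus as close, and its nearest were Zc3h15 (0.199), a locus merging Akap2 and Palm2 (0.263) and Spryd7 (0.308).

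Around these 10 genes, 80 other genes of the same pathways were compared, from 6 lists. In total RNA, 7 of the 80 had a ratio of at least 1.5 (against 18% of loci) and 23 of at most 0.75 (against 23.1%), and the median log2 change was -0.09. With equal FPKM sums, these were 8 and 21. Among the 58 with fragment numbers, 1 was past the upper threshold with an interval that left out 1 (against 2.37% of loci) and 7 past the lower (against 3.17%), of which 6 remained with equal FPKM sums. The genes past a threshold with such an interval are described below by their place in the pathway. The lists were chosen with earlier results of these data known, so the counts beside the shares of loci are not a test. An interval also leaves out 1 more readily on more fragments, and the pathway genes were not matched to the loci by fragment number. In the light fraction, 24 of the 80 were past the upper threshold (against 26.2%) and 19 past the lower (against 27.1%), and with equal FPKM sums 11 and 29. In the heavy fraction, 11 (against 21.8%) and 21 (against 26%) were, and with equal sums 11 and 23. In ribosome density, 14 (against 26.6%) and 37 (against 33.6%) were, but 18 and 24 with equal sums.

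**Figure D4:**
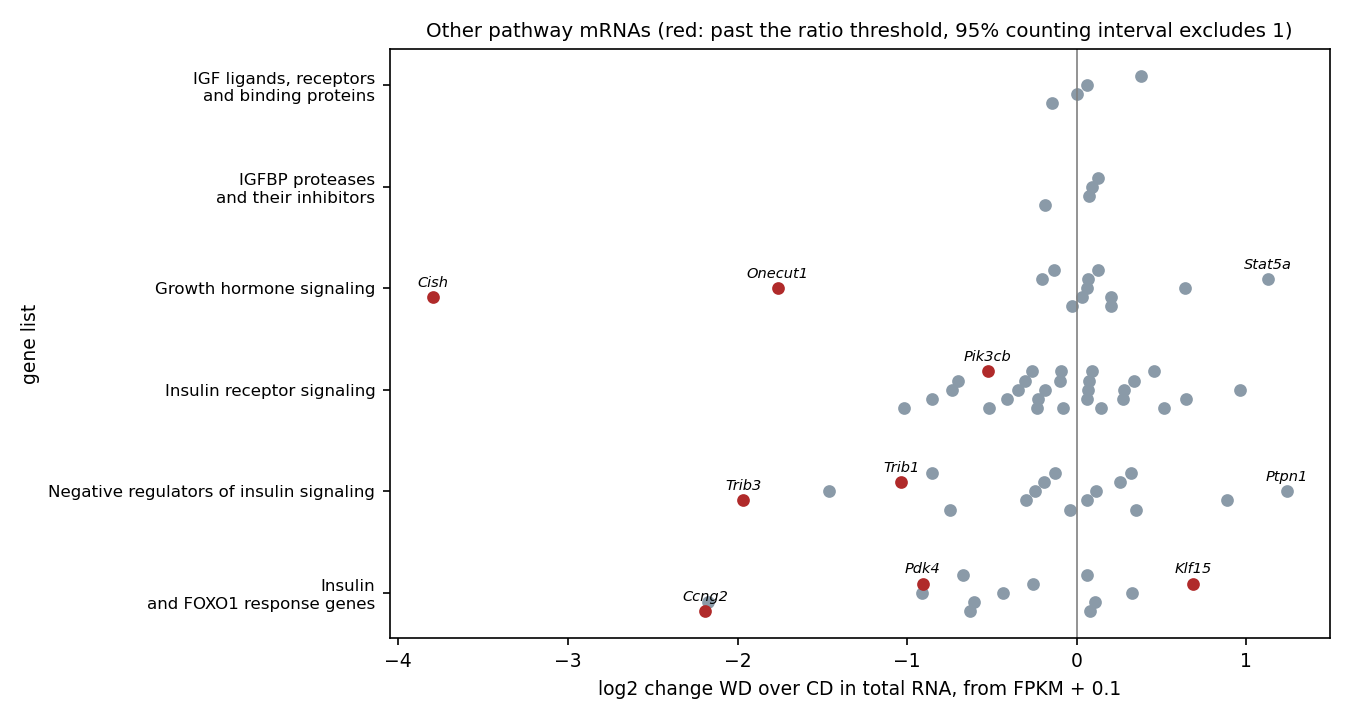
Log2 change in total RNA, from FPKM + 0.1, of the genes in the 6 pathway lists, 1 point per gene, with named genes labelled and with red points for those past a threshold whose interval leaves out 1. Cish (-3.80) and Onecut1 (-1.76) stand at the left of the growth hormone list and Klf15 (0.68) is the one red point at the right. Socs3, listed at 0 in WD total RNA, is left out.

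The other ligands, receptors and binding proteins showed no ratio past a threshold in total RNA in 4 of 4 genes compared. Of all loci, 18% were past the upper threshold there and 23.1% past the lower. Igf1r, the type 1 receptor that hepatocytes are known to hold little of, was listed at 0 in 5 of the 6 libraries and at 0.603 FPKM in the WD light fraction. Igf2r, which clears insulin-like growth factor 2, was at 12.7 FPKM in CD and 11.5 FPKM in WD total RNA. The proteases of binding proteins and their inhibitors also had 0 of 4 past a threshold in total RNA, against the same shares.

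Within growth hormone signaling, 2 of 14 genes were past the upper threshold in total RNA (against 18% of loci) and 3 past the lower (against 23.1%). Cish, a feedback inhibitor that Stat5 proteins induce, was at 14.1 FPKM in CD and 0.924 FPKM in WD total RNA, from 48 and 3 fragments. Its ratio was 0.0653 (interval 0.013 to 0.203). Cish was also at 21.6 and 0.991 FPKM in the light fractions and at 24.1 and 1.36 FPKM in the heavy fractions, with ratios of 0.046 (interval 0.0143 to 0.115) and 0.0563 (interval 0.0113 to 0.174). The 3 CD and the 3 WD libraries did not overlap for Cish, and the share of all loci for which this holds is not given. Onecut1, a liver transcription factor that growth hormone is known to induce, was at 83.1 FPKM in CD and 24.4 FPKM in WD total RNA, from 203 and 57 fragments, a ratio of 0.294 (interval 0.215 to 0.396). In the light fractions it was at 82.6 and 26.4 FPKM and in the heavy fractions at 19.9 and 6.28 FPKM, with ratios of 0.32 and 0.315. For both genes the 3 RNA preparations come from the same pools of rats and are not replicates of the diet.

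Socs2, another feedback inhibitor induced by Stat5b, had ratios nearer to 1. It was at 84.6 FPKM in CD and 73.4 FPKM in WD total RNA, from 118 and 98 fragments, a ratio of 0.868 (interval 0.657 to 1.14). Its ratios were 0.824 in the light and 0.773 in the heavy fraction. Stat5b itself was at 16.5 and 16.8 FPKM in total RNA. Stat5a was at 1.54 and 3.48 FPKM, from 6 and 13 fragments, a ratio of 2.27 (interval 0.803 to 7.27). Socs3 was at 2.64 FPKM in CD and listed at 0 in WD total RNA, from 2 and 0 fragments, so no fold is given. The growth hormone receptor, Igf1, Igfals, Socs2 and Stat5b thus had ratios between the thresholds in total RNA, while Cish and Onecut1 did not. The intervals of the receptor, Igf1 and Stat5b (0.651 to 1.6) held both thresholds, and that of Socs2 held 0.75. Socs2 and Stat5b were added after their values were seen, and Cish and Onecut1 were named for being past a threshold. Whether all these genes differ from each other across rats cannot be tested with 1 pool per diet.

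**Figure D5:**
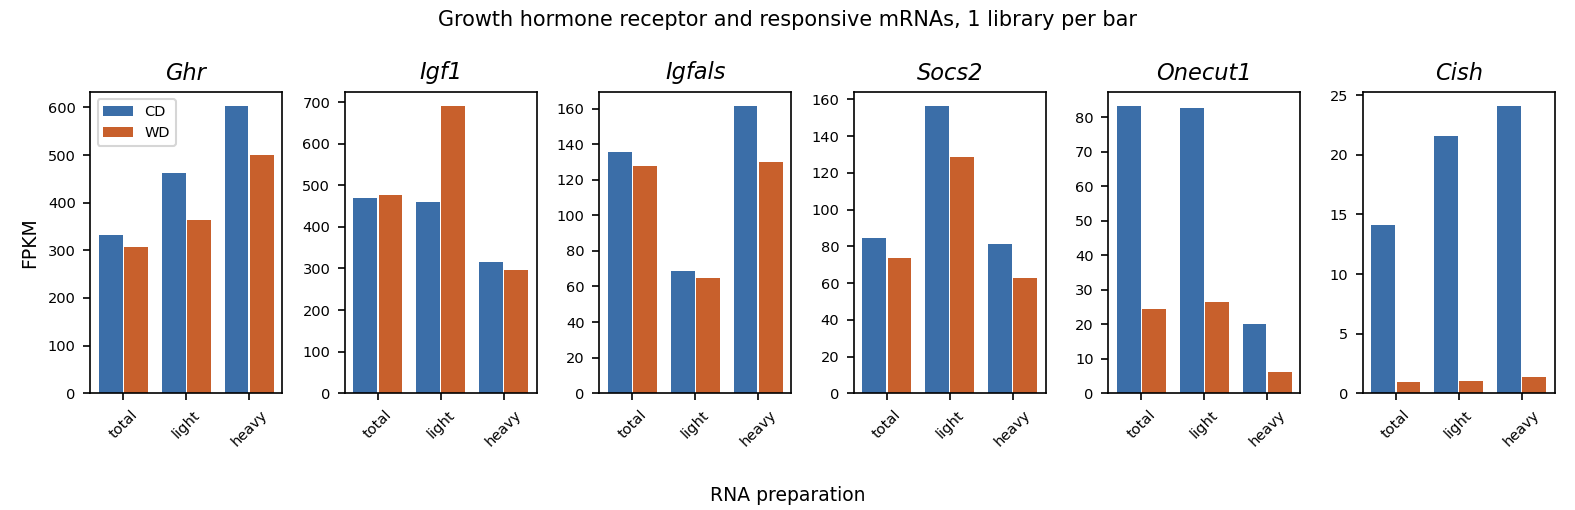
FPKM of Ghr and of mRNAs known to respond to growth hormone in total RNA and in the light and heavy fractions of CD (blue) and WD (orange), 1 library per bar, with a separate vertical axis from 0 for each gene. Cish and Onecut1 were lower in WD in each preparation, whereas Ghr, Igfals and Socs2 had ratios between 0.773 and 0.945 and Igf1 had its highest value in the WD light fraction.

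In insulin receptor signaling, 2 of 28 genes were past the upper threshold in total RNA (against 18% of loci) and 7 past the lower (against 23.1%), and with equal FPKM sums 3 and 6. The one with an interval that left out 1 was Pik3cb, a catalytic subunit of phosphatidylinositol 3-kinase, at 14.5 FPKM in CD and 10.1 FPKM in WD, a ratio of 0.692 (interval 0.476 to 0.999). With equal FPKM sums the ratio was 0.74 and the interval, 0.509 to 1.07, included 1. Among negative regulators of insulin signaling, 2 of 18 were past the upper (against 18% of loci) and 6 past the lower threshold (against 23.1%). Trib1 was at 28.6 FPKM in CD and 13.9 FPKM in WD total RNA, from 58 and 27 fragments, a ratio of 0.487 (interval 0.296 to 0.781). Trib3, an inhibitor of Akt, was at 10.6 and 2.64 FPKM in total RNA, a ratio of 0.249 (interval 0.0733 to 0.678), but at 11.8 and 13.2 FPKM in the light and 32.5 and 33.3 FPKM in the heavy fractions. The phosphatase gene Ptpn1, which had the highest change of all 80, was at 1.74 and 4.24 FPKM, from 3 and 7 fragments, a ratio of 2.44 (interval 0.557 to 14.6).

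Of 14 genes known to respond to insulin or Foxo1, 1 was past the upper threshold in total RNA (against 18% of loci) and 8 past the lower (against 23.1%), and 7 past the lower with equal FPKM sums. Of these 8, the interval left out 1 for Pdk4 and Ccng2. Pdk4, the kinase that restrains pyruvate dehydrogenase in fasting, was at 36.3 FPKM in CD and 19.3 FPKM in WD, from 57 and 29 fragments, a ratio of 0.532 (interval 0.328 to 0.846). It was lower in WD in the light (0.402) and heavy fractions (0.578) as well, with intervals that left out 1. Ccng2, a cyclin gene that Foxo factors activate, was at 7.7 and 1.61 FPKM in total RNA, from 20 and 4 fragments, a ratio of 0.209 (interval 0.052 to 0.624). Klf15, a transcription factor that is higher in fasting and acts on amino acid catabolism, was on the other side, at 14.5 FPKM in CD and 23.4 FPKM in WD, a ratio of 1.61 (interval 1.05 to 2.51). Igfbp1 and Irs2, the genes of this kind among the 10, had ratios of 2.61 and 0.523, on opposite sides of 1 and each with an interval that included it.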

How the data were processed

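After depletion of ribosomal RNA, reads were mapped by the authors with TopHat (Rnor_6.0), and the deposited values are FPKM per locus from Cufflinks and Cuffnorm, with lower and upper bounds. The route of the gradient fraction reads is not certain from the methods, and the annotation is not given in the sources used here. Locus positions follow Rnor_6.0 as deposited, and promoters the RefSeq table of GRCr8.

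Fragment numbers were inferred from the deposited FPKM values as whole numbers multiplied by 1 step per gene and 1 factor per library, for 72.1% of 13283 loci above 0 in at least 2 libraries. Another 430 loci with implausible numbers were left out. In these genes the libraries held 230537 to 528862 fragments, with a median of 8 to 22 per locus compared. The FPKM values fix fragment numbers only up to a common factor per gene. On data simulated for the total RNA comparison (7351 genes), numbers were found for 98.4% of genes, of which 98.1% had the true ones. The simulation covered only as many genes as had been given numbers and built them from whole numbers, as the inference assumes. These rates therefore cannot show that the numbers of the real loci are right, and they do not cover loci without numbers. Intervals of density were conditional odds ratios. A log2 change was computed after adding 0.1 FPKM.

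The 10 genes, the pathway lists and the markers were chosen with earlier results of these data known. The pathway lists were ligands, receptors and binding proteins, their proteases, growth hormone signaling, insulin receptor signaling, its negative regulators, and insulin and FOXO1 response genes. Named were pathway genes past a threshold in total RNA with a counting interval that leaves out 1, the 2 highest and the 2 lowest, and the 3 loci most like 4 of the genes. Igf1r, Igf2r, Igfbp7, Klkb1, Socs2 and Stat5b were added after their values were seen. Marker lists covered hepatocytes, Kupffer, sinusoidal endothelial, stellate and blood cells, and cholangiocytes, whose markers summed to at most 4.35 FPKM. Alternatives were other pseudocounts, filters, thresholds and scalings, summed loci and the heavy fraction over total RNA. Python 3.11.15, numpy 2.4.6, pandas 2.3.3, scipy 1.17.1 and matplotlib 3.10.9 were used. The authors' DEGseq and anota results were not analysed here.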

Additional observations from a re-analysis of the deposited data

Results flagged for a closer look

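With FPKM as deposited, none of the 10 genes had a diet difference that itself differed between the heavy and the light fraction beyond counting error, whereas with equal FPKM sums Igfbp4 did (density ratio 1.37, interval 1.22 to 1.54). Among the named pathway genes, Trib1 did as deposited, and with equal FPKM sums Klf15 did as well (density ratio 2.02, interval 1.18 to 3.43). The WD to CD ratio of Trib1 was 0.535 in the heavy fraction (31 and 17 fragments) and 0.166 in the light fraction (50 and 18 fragments), so its ribosome density ratio was 3.23 (interval 1.34 to 7.76, counting error only). With the heavy fraction taken over total RNA, the ratio was 1.1, so that the difference rests on the light libraries.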

How the results depend on the processing

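No paired analysis was possible because each group holds 1 library, and for the same reason no replicate could be left out. Of 110 recomputed medians and counts of the 10 genes, 107 moved by no more than the half-width of the genes' intervals or, for counts, by at most 1.5 times, and 3 moved further. These intervals are wide beside the medians, so the rule could hardly mark a median as moved. Under the alternatives the median log2 change took both signs in the light fraction (-0.17 to 0.19) and in ribosome density (-0.17 to 0.16). With each library rescaled to the same sum, 6 genes in place of 2 were past a threshold in the light fraction, and for heavy over light in WD 8 in place of 6. For ribosome density, 3 genes in place of 5 were past it with ratios of at least 2 or at most 0.5, and 3 with the heavy fraction over total RNA. No gene past a threshold changed sign under any alternative. The filter on low values changes the background only, since all 10 genes were described. Genes on few fragments (Igfbp1, Igfbp2 and Irs2) set the limit of what depth can show.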

Other observations

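In the light fraction, 3 of the 4 proteases of binding proteins and their inhibitors that were compared had a ratio of at least 1.5, against 26.2% of loci, and 1 of the 4 did with equal FPKM sums. The intervals of Plg (0.395 to 5.91) and Adamts1 (0.894 to 3.22) included 1. Plasma kallikrein (Klkb1) was at 12.8 FPKM in CD and 29 FPKM in WD, a ratio of 2.26 (interval 1.45 to 3.67), and of 1.77 (interval 1.13 to 2.87) with equal FPKM sums. Its values in total RNA were 58.1 and 61.1 FPKM. Igfbp7, a related binding protein made by endothelial cells, was at 58.2 and 91.4 FPKM in the light fraction, a ratio of 1.57 (interval 1.1 to 2.28), and at 44.7 FPKM in both diets in total RNA. With equal FPKM sums its light fraction ratio was 1.23 (interval 0.863 to 1.79), no longer past the threshold. Igfbp7 and Klkb1 were chosen after their values were seen.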
